A study of Mus musculus with 24 samples.

Results

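The peroxisome proliferator-activated receptors (PPARs), their retinoid X receptor (RXR) partners and the PGC-1 coactivators were followed in mouse fat cells after knockdown of the long noncoding RNA Ctcflos. The members were Pparg, Ppara, Ppard, Rxra, Rxrb, Rxrg, Ppargc1a, Ppargc1b and the corepressor gene Nrip1, that is, 9 of the 52089 gene symbols in the deposited table. Each symbol was read from 1 transcript entry, a RefSeq mRNA entry where there was one, and otherwise the entry with the highest mean over the 24 libraries. All 9 members had a RefSeq mRNA entry and all passed the filter on low values in every comparison.

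PPARs are nuclear receptors that bind fatty acids and their derivatives and sit on DNA as heterodimers with an RXR. PPARγ is the master regulator of fat cell differentiation and the receptor of rosiglitazone, PPARα and PPARδ switch on genes of fatty acid oxidation, and PPARα is more abundant in brown than in white fat. PGC-1α and PGC-1β bind the ligand-loaded receptors and recruit the transcription machinery, which in brown and brite fat drives mitochondrial biogenesis and Ucp1, whereas the protein encoded by Nrip1 (RIP140) recruits repressors to the same receptors.

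The cells were brite adipocytes, fat cells of a white depot with thermogenic features of brown fat, and came from preadipocytes of the stromal vascular fraction isolated from inguinal white adipose tissue of 129SvEv mice, named 129S6sv/ev in the study's methods. All groups were induced for 2 days and differentiated with rosiglitazone, and all were transfected 1 day into differentiation with a locked nucleic acid gapmer at 50 nM, a short antisense strand that has its target RNA cleaved by RNase H. The groups were KD 24 h and KD 72 h (gapmer against Ctcflos, RNA taken 24 h or 72 h after transfection) and NC 24 h and NC 72 h (nontargeting gapmer), with 6 libraries in each. Mice were 5 to 6 weeks old at cell isolation. The number of animals behind the libraries was not given in the sources used here. The study calls the samples biological replicates, the labels do not say whether they were separate cultures or animals, and p-values measure the spread between these samples, which may be technical. Since every group received rosiglitazone, a PPARγ ligand, the data hold no cells without it.

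The libraries were sequenced from the 3′ end of transcripts to between 1391832 and 5423840 mapped reads, with a median of 3945867. At these depths, 3 reads were worth 0.277 to 1.08 RPKM (reads scaled to transcript length and to the mapped reads of the library) for a transcript of 2 kb. Ctcflos itself (1300015D01Rik) ran from 0 to 0.62 RPKM in KD 24 h and from 0.178 to 1.38 in NC 24 h, and from 0 to 0.517 in KD 72 h and 0.886 to 1.75 in NC 72 h. The groups therefore overlapped at 24 h and not at 72 h. These values rest on 1 entry with few reads. Summed over each group, it held 12 in KD 24 h and 60 in NC 24 h, and 17 in KD 72 h and 91 in NC 72 h. The study describes several isoforms of Ctcflos, and each of its gapmers was aimed at only some of them. In NC 72 h, replicates 2 and 3 differed by less than the sampling noise and entered as 1 sample, which left 5 in that group. After removal of group means, 16 libraries formed a larger cluster and 8 a smaller cluster that took 2 from each group, and the labels give no reason for it. The summed level of 5 adipocyte markers (Adipoq, Plin1, Fabp4, Cidec and Lipe) ran from 36264 to 48473 in KD 24 h against 49143 to 51642 in NC 24 h, and from 25374 to 34535 in KD 72 h against 35201 to 47047 in NC 72 h, in scaled RPKM, most of it Fabp4 (mean over all samples 37024). It was lower in KD at both times with no overlap, where 6.41% and 7.75% of all entries were lower without overlap at 24 h and 72 h. The gaps were small beside the spread within KD. At 24 h all 5 markers were lower in KD, and at 72 h 4 were lower and 1 was higher. Of the 5, 2 were called lower at each time (Adipoq at both, Lipe at 24 h and Fabp4 at 72 h), where 11.6% and 12.1% of all entries were called lower. Of the other markers, 6 preadipocyte genes summed to between 339 and 992 over all samples with overlap at both times, almost all of it Ly6a. Summed levels of the macrophage markers were 2.81 to 30.4 and of the endothelial markers 0.136 to 1.43, and Tie1 and Vwf were at 0 in 19 and 20 samples. Of those markers, Csf1r was called higher in KD at both times (3.42 against 1.41 and 6.20 against 2.47 RPKM), and at 72 h Cd34 was called higher (1.81 against 0.415) and Lyz2 lower (1.19 against 13.6). Over all samples Cd34 held 255 reads and Lyz2 803. Neither could pass the filter through its lower group alone, so both calls rest on few reads there. The part of other cells in the members' differences was not tested.

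Pparg was by far the most abundant member per kilobase in all 4 groups. Its mean scaled level in NC 24 h was 111.6 ± 12.7 RPKM (SD, n = 6), and Rxrg, the RXR of most restricted tissue range, came next at 26.5 ± 4.5. Ppargc1b (10.1 ± 2.0), Ppara (6.61 ± 1.25) and Ppargc1a (5.32 ± 0.90) followed, then Nrip1 (2.92 ± 0.56), Rxra (2.73 ± 0.52), Ppard (2.46 ± 0.88) and Rxrb (1.80 ± 0.83). Neighbours in this order overlapped between their samples, except Pparg with Rxrg, Rxrg with Ppargc1b, and Ppargc1a with Nrip1. In NC 72 h the order was the same, and Ppara and Ppargc1a no longer overlapped. The order in KD 24 h began with the same 3 genes and ended with Rxra at 1.26 ± 0.40 RPKM. Since reads came from 3′ ends but were divided by the whole transcript length, long transcripts read low in such an order. Precision differed between members with their reads: a sample held 160 to 1259 reads of Pparg, 29 to 176 of Ppargc1a, 12 to 85 of Rxra and 4 to 43 of Rxrb.

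**Figure D1:**
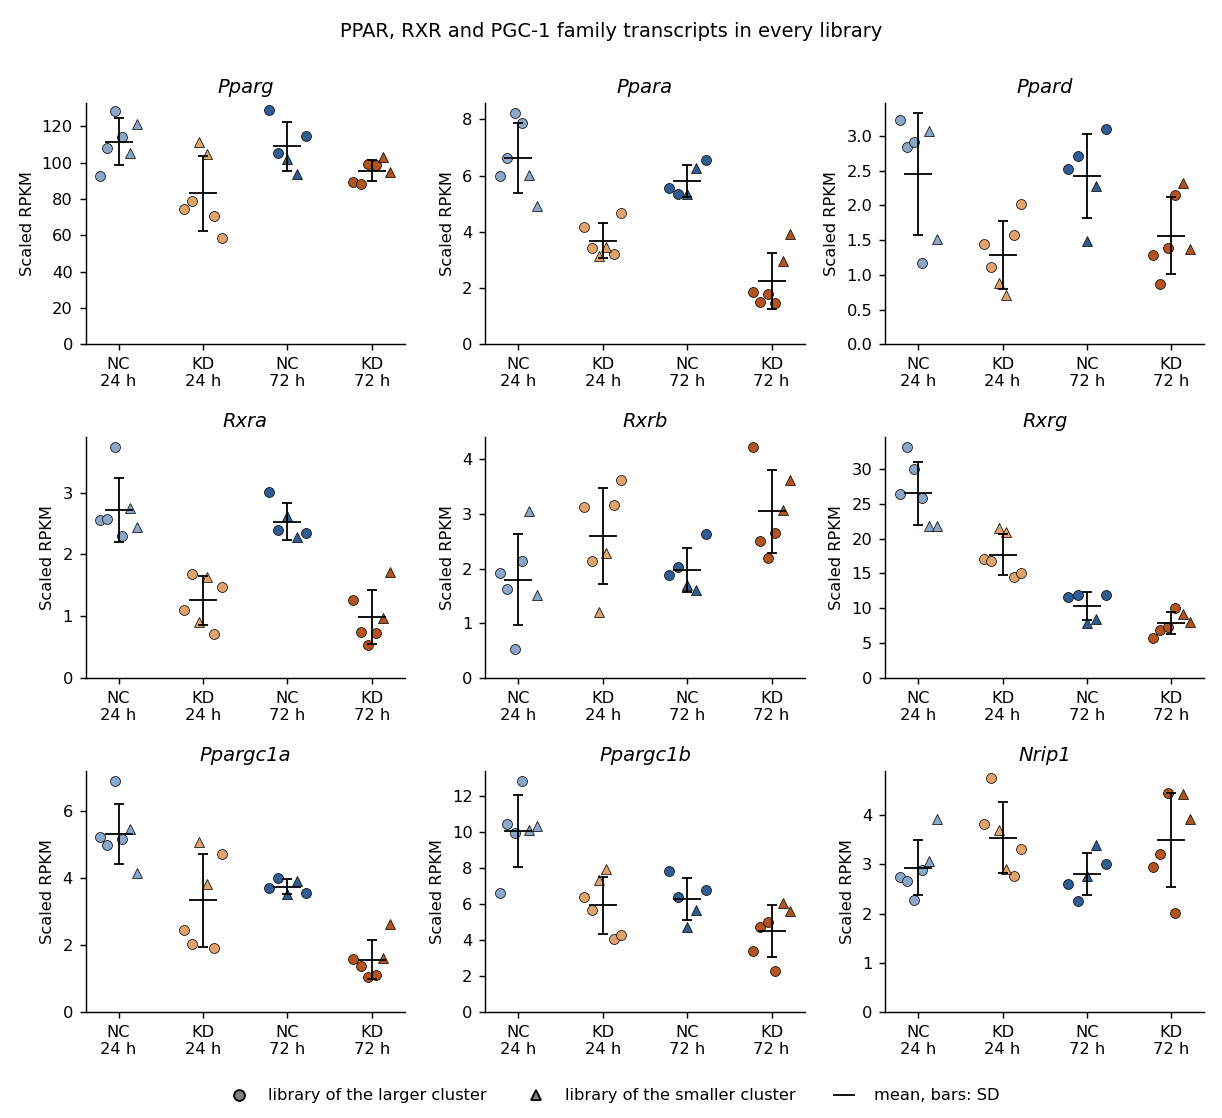
Scaled RPKM of the 9 members in every sample, with 1 panel per gene, 1 point per sample and a bar at the group mean with its SD. For Ppara and Rxra, the KD points lie below all NC points of the same time. For Ppargc1a they do so at 72 h, and for Rxrg at 24 h.

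After 24 h of knockdown, 5 of the 9 members were called lower in KD than in NC and none was called higher, where 11.6% of all 52004 entries tested were called lower, 11.1% higher and 22.7% in either direction (limma, Benjamini-Hochberg over all entries, threshold 0.05). The 5 were Ppara, Pparg, Rxra, Rxrg and Ppargc1b. Of the rest, Ppard and Ppargc1a had lower means in KD and Rxrb and Nrip1 had higher ones, with adjusted p-values from 0.057 to 0.32. The median over the members was a log2 fold change of -0.73, beside -0.01 over all entries. KD and NC did not overlap for Ppara, Rxra and Rxrg, all lower in KD, where 6.41% of all entries were lower without overlap.

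After 72 h, 3 of the 9 members were called lower, Ppara, Rxra and Ppargc1a, and none was called higher, where 12.1% of 54137 entries were called lower, 10.4% higher and 22.5% in either direction. The same 3 were the members whose KD and NC samples did not overlap, where 7.75% of all entries were lower without overlap. The median over the members was -0.52, beside 0.01 over all entries. On the deposited scale, without the trimmed-mean scaling, the median of all entries at 72 h was 0.25 and 80.9% of calls were higher in place of 46.2%, so changes at 72 h are given relative to the scaled median. In bulk RNA, fewer fat cells and less of a transcript per fat cell cannot be told apart, and the part of the lower adipocyte marker sum in the members' differences was not tested.

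**Figure D2:**
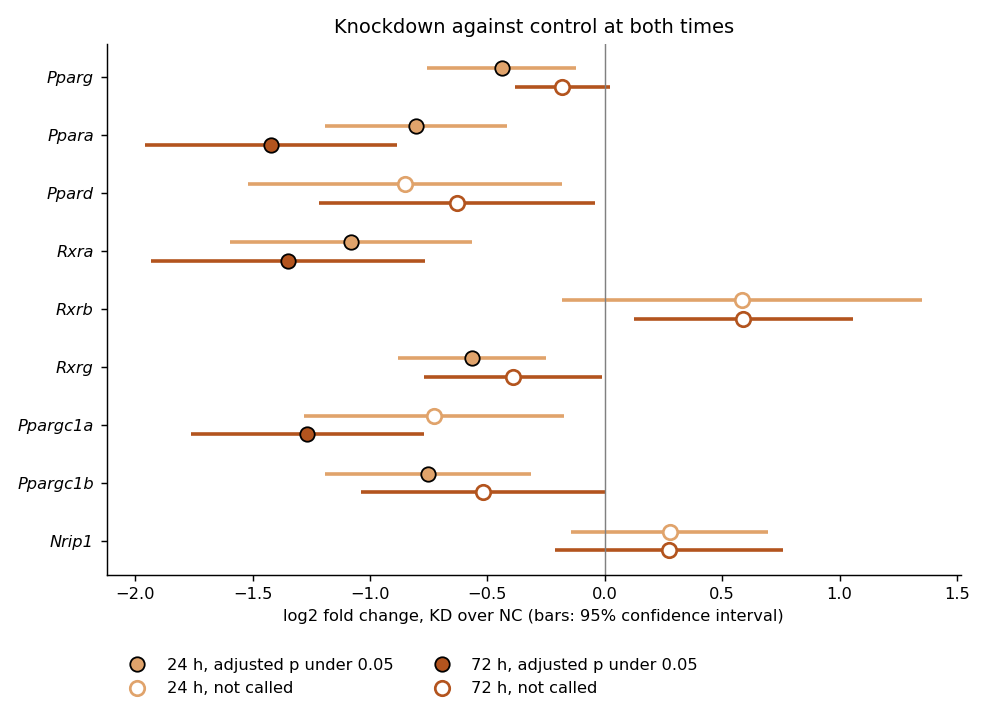
Log2 fold change of each member between KD and NC at 24 h and 72 h with its 95% confidence interval, filled where the adjusted p was under 0.05. Ppara and Rxra are filled at both times, and Rxrb and Nrip1 are the members on the positive side.

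Ppara, the receptor that controls fatty acid oxidation in liver and is enriched in brown fat, was lower in KD at both times. In KD 24 h its scaled level ran from 3.14 to 4.69 RPKM with a median of 3.45, and in NC 24 h from 4.93 to 8.22 with a median of 6.33. In KD 72 h it ran from 1.46 to 3.94 with a median of 1.81, while the samples of NC 72 h gave 5.58, 5.33, 5.35, 6.26 and 6.57. Every KD sample was thus below every NC sample of its time. The log2 fold change was -0.80 ± 0.18 (SE; adjusted p = 0.0070) at 24 h and -1.42 ± 0.25 (adjusted p = 0.0012) at 72 h. Both KD 72 h libraries of the smaller cluster, at 2.96 and 3.94 RPKM, were the highest of their group. Within the larger cluster the fold changes were -0.87 and -1.75, and within the smaller one -0.70 and -0.75. All 8 table entries of Ppara had lower means in KD at both times, and 5 of them were called at 24 h and 8 at 72 h. Entries of 1 gene can share reads, so such counts, here and for other members, are not separate measurements.

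The RefSeq promoter of Ppara, on the forward strand of GRCm38.p6 at chr15:85735526-85735825, is shown because Ppara was called lower at both times. It lies within the 67.8 kb that GENCODE M21 gives the gene, which begin at base 85734983. It holds 250 bases before and 50 after the annotated start. Capitals mark TGACG, the core of the cAMP response element, at base -222 from the start.
Ppara: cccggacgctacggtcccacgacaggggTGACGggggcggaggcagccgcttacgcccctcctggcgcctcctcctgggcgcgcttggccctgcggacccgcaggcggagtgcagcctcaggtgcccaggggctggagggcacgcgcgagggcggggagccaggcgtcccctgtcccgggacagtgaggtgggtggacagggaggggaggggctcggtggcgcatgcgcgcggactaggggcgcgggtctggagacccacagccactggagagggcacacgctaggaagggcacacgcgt
Of 32851 RefSeq promoters of this length, 20.8% hold TGACG on either strand. The sequence is 74.7% G and C with 30 CpG, beside medians of 52.7% and 7 over all promoters. Such matches are descriptions of the letters and not evidence of binding.

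Pparg was called lower at 24 h, and at 72 h it was not. Its scaled level ran from 58.8 to 111 RPKM with a median of 76.7 in KD 24 h, and from 92.5 to 129 with a median of 111 in NC 24 h. KD 24 h replicates 3 and 4, both of the smaller cluster, were the highest of the KD group at 111 and 105 RPKM and lay within the NC range. The log2 fold change was -0.44 ± 0.15 (adjusted p = 0.046), and the call ended (adjusted p from 0.060 to 0.098) when any 1 of 9 libraries was left out, that is, any but KD 24 h replicates 3 and 4 and NC 24 h replicate 1. Within the larger cluster it was -0.65 and within the smaller one -0.06. At 72 h KD ran from 88.4 to 103 RPKM with a median of 96.6, and NC samples gave 129, 105, 102, 93.9 and 115. The groups overlapped, and the log2 fold change of -0.18 had a 95% interval from -0.38 to 0.02 (adjusted p = 0.19) and read 0.07 on the deposited scale. The gene spans 129.4 kb at chr6:115360951-115490399 and shares part of it with the antisense gene Gm44079. Since the handling of strand was not stated, reads of the 2 cannot be told apart.

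Ppard, the broadly expressed PPAR, was among the lowest members, at 10 to 59 reads per sample. Scaled levels ran from 0.704 to 2.02 RPKM in KD 24 h (median 1.27) and from 1.17 to 3.22 in NC 24 h (median 2.88). At 72 h they ran from 0.87 to 2.32 in KD (median 1.38), against 2.52, 2.72, 1.49, 2.28 and 3.10 in NC. The groups overlapped at both times. The log2 fold changes were -0.85 at 24 h (95% interval -1.52 to -0.18, adjusted p = 0.063) and -0.63 at 72 h (-1.22 to -0.04, adjusted p = 0.11), so neither passed the threshold and differences of more than 2-fold lie within the intervals. At 24 h the call was gained without KD replicate 6 (adjusted p = 0.029) or without NC replicate 4 (adjusted p = 0.033). Some other fits also gained it, with RefSeq entries alone (adjusted p = 0.044) or limma-voom (adjusted p = 0.038). So did a term for the library cluster (adjusted p = 0.047) and all 4 groups in 1 fit (adjusted p = 0.033).

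Among the RXRs, Rxra, the broadly expressed form, had the pattern of Ppara. It ran from 0.723 to 1.68 RPKM in KD 24 h with a median of 1.29, and from 2.29 to 3.73 in NC 24 h with a median of 2.56. In KD 72 h the level ran from 0.533 to 1.72 with a median of 0.86, and the NC 72 h samples gave 3.01, 2.39, 2.63, 2.28 and 2.34. No KD sample reached an NC sample of its time. The log2 fold change was -1.08 ± 0.24 (adjusted p = 0.0065) at 24 h and -1.35 ± 0.27 (adjusted p = 0.0030) at 72 h. It was -1.13 and -1.59 within the larger cluster and -1.01 and -0.87 within the smaller one. All 4 Rxra entries that passed the filter, of 10 in the table, were called lower at both times.

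RefSeq gives Rxra 2 starts on the forward strand within its 86.5 kb, at chr2:27676951-27677250 and chr2:27709042-27709341, and both are shown because they differ in base composition and in the half-site. Capitals mark AGGTCA, the half-site to which PPARs, RXRs and other nuclear receptors bind, read on the reverse strand at base -87 (printed as TGACCT) and on the forward strand at base -48 of the second start.
Rxra start 1: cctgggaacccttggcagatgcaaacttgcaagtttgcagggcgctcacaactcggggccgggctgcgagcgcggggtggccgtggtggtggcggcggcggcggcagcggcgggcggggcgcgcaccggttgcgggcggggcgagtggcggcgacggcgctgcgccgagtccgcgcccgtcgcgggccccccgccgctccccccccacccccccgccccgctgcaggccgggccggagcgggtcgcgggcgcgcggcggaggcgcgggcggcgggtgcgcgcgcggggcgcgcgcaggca
Rxra start 2: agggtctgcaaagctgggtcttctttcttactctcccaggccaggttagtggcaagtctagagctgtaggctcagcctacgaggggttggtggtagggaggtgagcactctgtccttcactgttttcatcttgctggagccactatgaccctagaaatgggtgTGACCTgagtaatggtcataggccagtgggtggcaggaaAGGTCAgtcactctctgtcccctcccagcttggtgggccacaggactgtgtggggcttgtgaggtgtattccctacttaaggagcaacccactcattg
The first start has 83.0% G and C with 55 CpG and the second 54.3% with 1 CpG. AGGTCA occurs in 16.3% of all promoters. The direct repeat to which a PPAR and an RXR bind as a pair, AGGTCA followed after 1 base of any kind by AGGTCA, occurs in 0.0396% of them and in none of the 14 promoters of the members. Reads from 3′ ends do not tell which start was used.

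Rxrg, the RXR found mainly in muscle, brain and fat, was called lower at 24 h. It ran from 14.5 to 21.6 RPKM in KD 24 h with a median of 17.0, and from 21.7 to 33.1 in NC 24 h with a median of 26.1. The groups did not overlap, although the gap between 21.6 and 21.7 RPKM was far smaller than the spread within either group. The log2 fold change was -0.56 ± 0.15 (adjusted p = 0.015), at -0.85 within the larger cluster and -0.03 within the smaller one, whose 2 KD libraries were the highest of KD and whose 2 NC libraries were the lowest of NC. All 5 entries of Rxrg were called lower, but several held almost the same mean reads (104.46, 104.38, 104.17 and 102.96). At 72 h KD ran from 5.75 to 10.1 RPKM with a median of 7.72, and NC gave 11.7, 11.9, 7.94, 8.49 and 11.9. The groups overlapped, and the fold change of -0.39 (95% interval -0.77 to -0.01, adjusted p = 0.13) was not called.

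Rxrb, which spans only 6.6 kb, was the member with the fewest reads and had higher means in KD. It ran from 1.21 to 3.60 RPKM in KD 24 h with a median of 2.70, and from 0.532 to 3.05 in NC 24 h with a median of 1.77. At 72 h the range was 2.20 to 4.21 in KD with a median of 2.86, against 1.89, 2.02, 1.70, 1.61 and 2.63 in NC. The groups overlapped at both times. The log2 fold changes of 0.58 (95% interval -0.18 to 1.35, adjusted p = 0.25) and 0.59 (0.12 to 1.06, adjusted p = 0.066) were not called. At 24 h the value was 1.03 within the larger cluster and -0.35 within the smaller one. On the deposited scale the 72 h value was 0.83 (adjusted p = 0.016), and without NC 72 h replicate 6 it was 0.69 (adjusted p = 0.048).

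Ppargc1a, which encodes PGC-1α, the coactivator induced by cold and adrenergic signals, was called lower at 72 h. It ran from 1.05 to 2.65 RPKM in KD 72 h with a median of 1.49, and the NC 72 h samples lay close together at 3.71, 4.02, 3.54, 3.92 and 3.56. The groups did not overlap, and the log2 fold change was -1.27 ± 0.23 (adjusted p = 0.0015). At 24 h KD ran from 1.93 to 5.09 RPKM with a median of 3.14 and NC from 4.16 to 6.90 with a median of 5.20. KD 24 h replicates 3, 4 and 6 at 5.09, 3.82 and 4.73 RPKM were above the other 3 KD samples, which lay between 1.93 and 2.45, and the first and last of them were within the NC range. The fold change of -0.73 (95% interval -1.28 to -0.17, adjusted p = 0.057) was not called. It passed the threshold on recovered reads (limma-voom, adjusted p = 0.017) and within the larger cluster (-1.06, adjusted p = 0.029), and was -0.10 within the smaller one. It also passed without KD 24 h replicate 3 (adjusted p = 0.025), replicate 4 (0.0496) or replicate 6 (0.023). At 72 h the cluster values were -1.49 and -0.81.

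All 5 Ppargc1a entries that passed the filter had lower means in KD at both times, with 1 called at 24 h and 5 at 72 h. The other 2 entries, of 2698 and 2601 bases, held few reads. Their means were 0.946 and 0.897 RPKM in KD 24 h against 0.704 and 0.675 in NC 24 h. At 72 h the means were 0.359 and 0.343 in KD against 0.659 and 0.534 in NC. These 2 entries were not tested. The promoter of Ppargc1a, on the reverse strand at chr5:51567676-51567975 with the gene's 113.5 kb downstream, is shown because transcription of this gene is known to respond to cAMP. Capitals mark TGACG read on the reverse strand (printed as CGTCA) at base -49.
Ppargc1a: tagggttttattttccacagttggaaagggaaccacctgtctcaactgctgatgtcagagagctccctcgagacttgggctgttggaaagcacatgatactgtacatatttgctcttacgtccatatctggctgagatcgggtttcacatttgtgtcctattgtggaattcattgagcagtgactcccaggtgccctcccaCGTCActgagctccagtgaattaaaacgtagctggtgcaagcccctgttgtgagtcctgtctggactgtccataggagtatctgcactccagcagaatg
The full palindrome TGACGTCA, which 1.79% of all promoters hold, is in no promoter of the members. The sequence is 48.7% G and C with 5 CpG.

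Ppargc1b, which encodes PGC-1β, a coactivator of mitochondrial genes in basal states, was called lower at 24 h. It ran from 4.05 to 7.94 RPKM in KD 24 h with a median of 6.04, and from 6.61 to 12.9 in NC 24 h with a median of 10.2. Only the lowest NC sample lay within the KD range. The log2 fold change was -0.75 ± 0.21 (adjusted p = 0.018), at -0.94 within the larger cluster and -0.41 within the smaller one. At 72 h KD ran from 2.29 to 6.05 RPKM with a median of 4.87, and NC gave 7.87, 6.43, 4.73, 5.66 and 6.79. The groups overlapped, and the fold change of -0.52 (95% interval -1.04 to 0.00, adjusted p = 0.14) was not called. It was -0.90 within the larger cluster (adjusted p = 0.038) and 0.17 within the smaller one.

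Nrip1, the corepressor gene, had slightly higher means in KD and was called at neither time. It ran from 2.76 to 4.74 RPKM in KD 24 h (median 3.50) and from 2.27 to 3.92 in NC 24 h (median 2.82). At 72 h it ran from 2.01 to 4.44 in KD (median 3.56), against 2.61, 2.25, 2.76, 3.39 and 3.00 in NC. The groups overlapped, and the log2 fold changes were 0.28 (95% interval -0.14 to 0.70, adjusted p = 0.32) and 0.27 (-0.21 to 0.76, adjusted p = 0.42). Entries of Nrip1 differed among themselves. Of the 9 tested at 24 h, 2 had fold changes under 0, the range ran from -0.91 to 0.83, and the single one called, AK078829, was higher (19.98 against 10.9 RPKM, adjusted p = 0.017). The longest, ENSMUST00000121927 at 7868 bases, held the most reads and read 7.22 RPKM in KD 24 h against 5.32 in NC 24 h (0.43, adjusted p = 0.11).

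The balance of coactivator and corepressor transcripts was also taken within each library, where scaling cancels. It is described here without a test, and the share of other gene pairs whose ratios separate was not taken. Ppargc1a and Ppara did not overlap at 72 h by themselves, so their ratios at 72 h are not separate results. The log2 ratio of Ppargc1a to Nrip1 had a median of -0.06 in KD 24 h, with a range from -1.22 to 0.52, and of 0.88 in NC 24 h, from 0.08 to 1.60. At 72 h the medians were -1.05 in KD (-2.08 to -0.56) and 0.36 in NC (0.21 to 0.84). The groups did not overlap at 72 h. With the most-read Nrip1 entry in its place, an alternative chosen after seeing the data, all 72 h ratios were below 0, at -2.51 to -1.20 in KD and -0.75 to -0.10 in NC, again without overlap. The sign of the ratio thus depends on the entry and its length. The ratio of Ppargc1b to Nrip1 likewise did not overlap at 72 h, at 0.17 to 0.56 in KD and 0.74 to 1.59 in NC. The log2 ratio of Ppara to Pparg ran from -6.08 to -4.59 in KD 72 h and from -4.53 to -3.91 in NC 72 h, with medians of -5.70 and -4.25. At 24 h its medians were -4.49 and -3.99, and the groups overlapped. Per kilobase, the log2 ratio of Rxrg to Rxra had medians of 3.81 in KD 24 h, 3.26 in NC 24 h, 3.22 in KD 72 h and 1.95 in NC 72 h. The transcripts differ in length (1676 and 5267 bases), which enters this ratio. Reads of Rxrg and Rxra summed to 1090 and 348 in NC 24 h and to 357 and 268 in NC 72 h. In KD they summed to 726 and 155 at 24 h and to 334 and 136 at 72 h. NC 72 h replicate 4, with 50 of Rxrg and 52 of Rxra, was the only sample with more reads of Rxra.

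**Figure D3:**
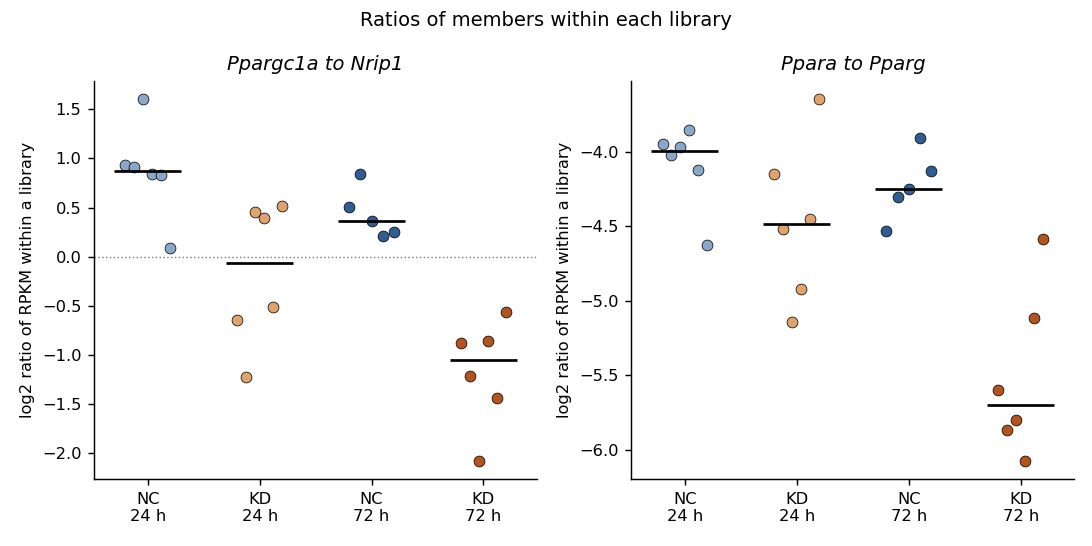
Log2 ratio of scaled RPKM within each sample for Ppargc1a to Nrip1 (left) and Ppara to Pparg (right), with 1 point per sample and a line at the group median. All 6 KD 72 h points lie below all 5 NC 72 h points in both panels.

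Between 24 h and 72 h after transfection, the main change of a member in control cells was that of Rxrg. It was lower in every NC 72 h sample (7.94 to 11.9 RPKM) than in any NC 24 h sample (21.7 to 33.1), with a log2 fold change of -1.34 ± 0.15 (adjusted p = 1.1e-04). It was -1.27 within the larger cluster and -1.38 within the smaller one. The log2 fold change of Ppargc1b was -0.65 ± 0.18 (adjusted p = 0.032), with overlap between the groups, and that call ended (adjusted p from 0.054 to 0.073) when any 1 of 8 samples was left out, that is, any but NC 24 h replicate 1 and NC 72 h replicates 1 and 6. These were the 2 members called of 9, both lower, where 4.51% of 52692 entries were called lower and 9.15% in either direction. Ppargc1a did not overlap either (3.54 to 4.02 against 4.16 to 6.90 RPKM), as was so for 7.42% of all entries and, in the lower direction, for 3.84%, and its fold change of -0.47 ± 0.16 was not called (adjusted p = 0.084). The other 6 members had fold changes between -0.16 and 0.26. In the same comparison the thermogenic genes Ucp1, Cidea and Cox7a1, of 4 tested, were called higher (2.49, 2.33 and 0.84), as were 4.64% of all entries.

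An interaction term over all 4 groups compared the effect at 72 h with that at 24 h. No member was called, and none had an unadjusted p under 0.05, where 120 of 59266 entries (0.202%) were called and 6967 had an unadjusted p under 0.05 in limma. Ppara came nearest, with a difference of effects of -0.60 ± 0.30 on the log2 scale (adjusted p = 0.44). Ppargc1a followed at -0.53 (95% interval -1.25 to 0.20) and Pparg at 0.27 (-0.11 to 0.65). A member called at one time and not at the other, such as Pparg, Rxrg, Ppargc1a and Ppargc1b, was therefore not shown to respond differently at the 2 times.

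Of the 9 members 7 are long genes, and all genes of that span class had a median below 0 in KD against NC. Pparg, Ppara, Ppard, Rxra, Ppargc1a, Ppargc1b and Nrip1 span 67.8 to 129.4 kb in GENCODE M21. Of 1454 genes of 60 to 150 kb tested at 24 h, 19.1% were called lower and the median log2 fold change was -0.17, against 7.5% and 0.09 among 3942 genes under 20 kb. At 72 h the medians were -0.10 and 0.08. For genes over 150 kb they were -0.73 at 24 h and -0.49 at 72 h. In NC 72 h against NC 24 h no span class moved by more than 0.053. Rxrg, at 41.2 kb, and Rxrb, at 6.6 kb, fell outside this class. Nrip1 is in it and had higher means in KD. The part of gene span in the members' differences was not tested. Span was known for 80.8% of the genes at 24 h and 81.4% at 72 h.

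**Figure D4:**
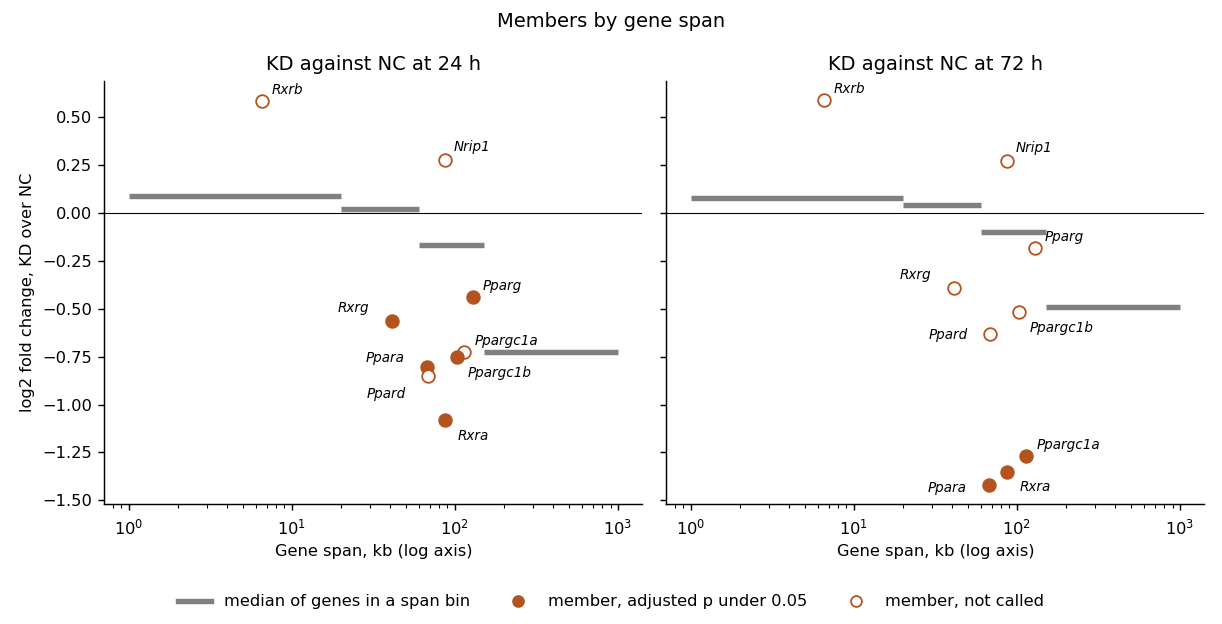
Log2 fold change of the 9 members between KD and NC against gene span in kb (log axis), at 24 h and 72 h, with grey bars at the median of all tested genes in 4 span classes. The median is above 0 under 20 kb and lowest over 150 kb, and all members but Rxrb and Nrip1 lie below the bar of their class at both times.

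Target genes of the receptors were taken from lists. Over all genes, with 1 entry per gene, 22.8% were called at 24 h (11.6% lower and 11.2% higher) and 23.4% at 72 h (13% lower and 10.4% higher). Among 20 PPARγ targets of lipid storage and fat cell identity, 7 were called lower and 1 higher at 24 h, and 10 lower and 1 higher at 72 h, with medians of -0.34 and -0.51. This list holds all 5 adipocyte markers, of which 2 were called lower at each time, so it is not separate from the marker sum. Gpd1, which makes glycerol 3-phosphate for triglycerides, changed by -0.75 ± 0.11 at 24 h (271 against 458 RPKM, adjusted p = 5.2e-04). Adig, a small fat cell membrane protein, changed by -0.75 at 24 h (adjusted p = 0.0050) and -1.30 at 72 h (149 against 359 RPKM, adjusted p = 8.2e-05). The glycerol channel gene Aqp7 changed by -1.04 ± 0.25 at 24 h (22.3 against 42.5 RPKM) and -0.85 ± 0.15 at 72 h. The hormone gene Adipoq, which is also one of the adipocyte markers, changed by -0.96 at 72 h (1034 ± 294 against 1948 ± 54 RPKM). Angptl4, an inhibitor of lipoprotein lipase, was the one called higher at 24 h (0.54 ± 0.16, 275 against 185 RPKM, a call lost without any 1 of 5 libraries), and the retinol saturase gene Retsat at 72 h (0.46 ± 0.12, 159 against 116 RPKM).

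Fatty acid oxidation genes, targets of PPARα and PPARδ, went both ways. At 24 h 4 of 21 tested were called lower and 2 higher, and at 72 h 10 of 22 lower and 3 higher, with medians of -0.18 and -0.44. Hadha, a subunit of the trifunctional protein of β-oxidation, changed by -0.86 at 24 h and -0.95 at 72 h (74.0 ± 14.9 against 142.0 ± 15.3 RPKM, adjusted p = 2.0e-04). The medium-chain dehydrogenase gene Acadm changed by -0.35 and -1.22, and the thiolase gene Acaa2 by -0.51 and -1.07. Cpt1b, which carries fatty acids into mitochondria, changed by -0.75 at 24 h (adjusted p = 0.0040). Acadm at 24 h fell outside the naming rule and was named after its value was seen, since it completes the 4.

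The genes called higher included targets of PPARα known from liver. Cyp4a10, a fatty acid ω-hydroxylase, was below the filter at 24 h, and at 72 h it was 4.21 ± 0.78 against 0.493 ± 0.233 RPKM (2.96 ± 0.29, adjusted p = 1.9e-05). It passed the filter at 72 h through the KD group alone, with 225 reads summed in KD 72 h and 21 in NC 72 h. Its fold change and p-value thus rest on few control reads. Close copies of this gene can share its reads, which leaves its source uncertain. Fabp3, a fatty acid binding protein, had medians of 30.7 and 9.98 RPKM in KD and NC at 72 h (1.34 ± 0.20). Acot1, an acyl-CoA thioesterase, was 6.28 ± 2.30 against 1.54 ± 0.93 RPKM at 72 h (2.05 ± 0.34) and has a near-identical neighbour in Acot2. It passed the filter through the KD group, with 244 reads summed in KD 72 h and 47 in NC 72 h. The values of Acot1 thus also rest on few control reads. At 24 h the peroxisome gene Pex11a (0.69 ± 0.17, 81.2 against 50.6 RPKM) and the lipid droplet coat gene Plin2 (0.51 ± 0.14, 1008 against 702 RPKM) were called higher. Ppara itself was called lower in the same samples.

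**Figure D5:**
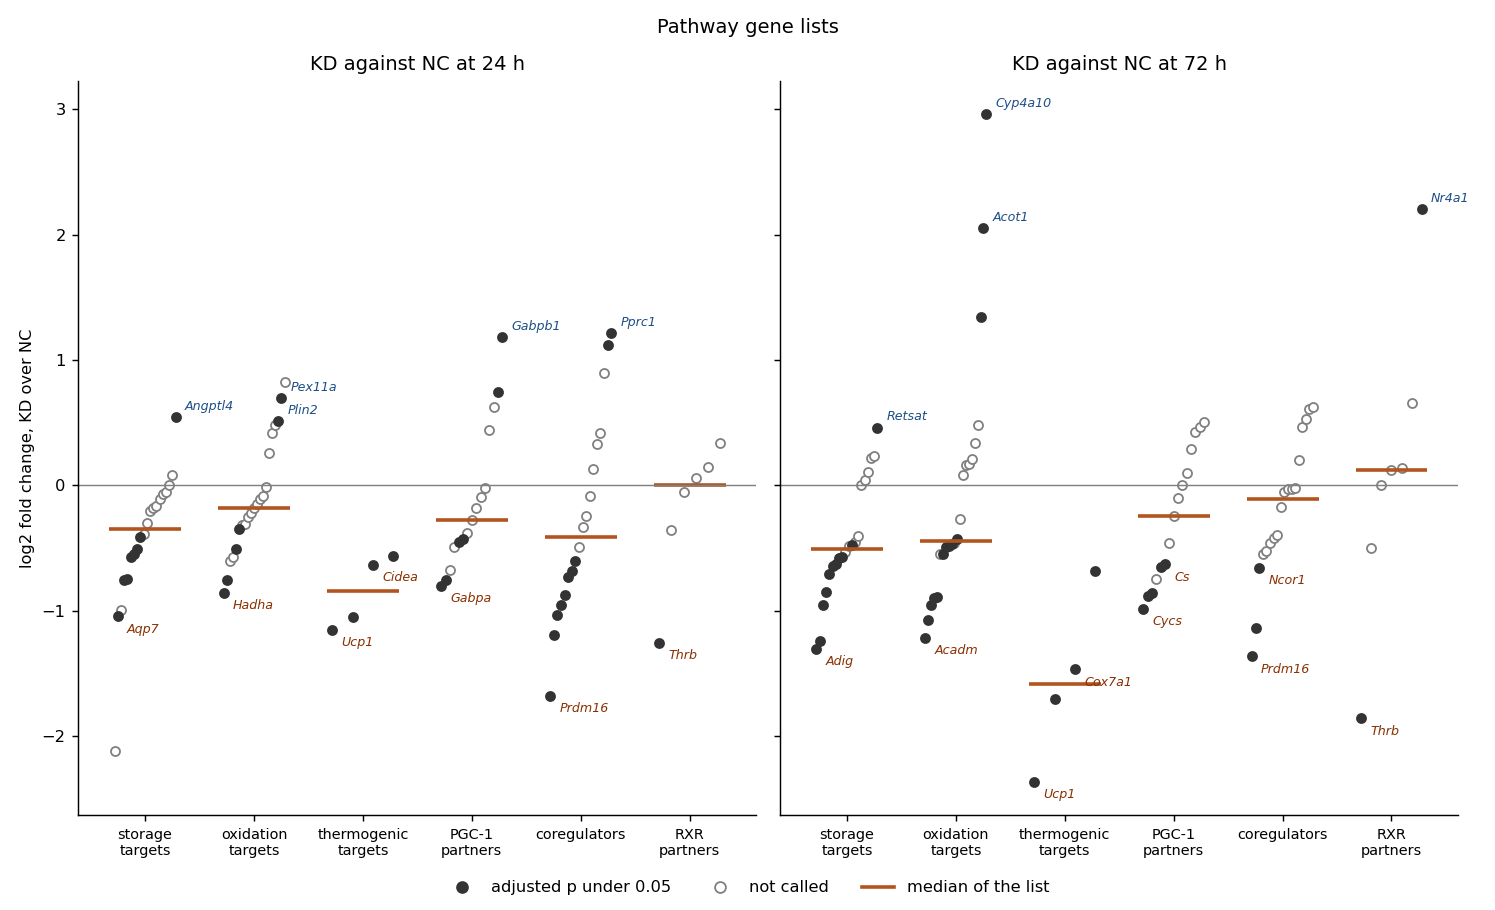
Log2 fold change between KD and NC at 24 h (left) and 72 h (right) for every tested gene of 6 lists, filled where the adjusted p was under 0.05, with a bar at the list median. In the oxidation list most genes lie near or below 0 while Cyp4a10 stands at 2.96 at 72 h, and all 4 tested thermogenic genes lie below 0.

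Thermogenic genes of brite cells that carry PPAR elements or depend on PGC-1 were called lower throughout, 4 of 4 tested at both times. The study followed several of these genes in the same cells, so that their direction is not independent evidence. Ucp1, the uncoupling protein, was 59.3 ± 13.6 against 139.8 ± 53.8 RPKM at 24 h (-1.15 ± 0.24, adjusted p = 0.0049) and 148.9 ± 57.0 against 739 ± 138 at 72 h (-2.37 ± 0.21, adjusted p = 8.2e-06). The lipid droplet gene Cidea changed by -0.64 and -1.70, and its call at 24 h was lost without any 1 of 9 libraries. Elovl3, a fatty acid elongase, changed by -1.05 and -0.68, and Cox7a1, a subunit of cytochrome c oxidase, by -0.57 and -1.47. Of these, Cox7a1 at 24 h and Elovl3 at 72 h were named after their values were seen.

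Of 15 tested partner factors and mitochondrial targets of PGC-1, 4 were called lower and 2 higher at 24 h, and 5 lower and none higher at 72 h. Cytochrome c (Cycs) changed by -0.45 at 24 h and -0.98 ± 0.11 at 72 h (42.5 against 84.6 RPKM, adjusted p = 6.2e-05), and Idh3a, a subunit of isocitrate dehydrogenase, by -0.75 and -0.86. Sod2, the mitochondrial superoxide dismutase, changed by -0.43 and -0.88, and citrate synthase (Cs) by -0.63 at 72 h. The subunits of GA-binding protein, an activator of mitochondrial genes, went apart at 24 h: Gabpa changed by -0.80 ± 0.19 and Gabpb1 by 1.18 ± 0.26 (2.50 against 1.06 RPKM). Gabpa was also called lower at 72 h (-0.65). The factor YY1 gene, Yy1, was the other one called higher (0.74 ± 0.24, 10.9 against 6.19 RPKM). At 24 h the calls of Idh3a and Yy1 were lost without any 1 of 9 and of 8 libraries. Cycs at 24 h and Gabpa and Sod2 at 72 h were named after their values were seen.

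Among 18 other coregulators of nuclear receptors, 8 were called lower and 2 higher at 24 h, and 3 lower and none higher at 72 h. Prdm16, the brown fat determination factor, was 0.45 ± 0.23 against 1.61 ± 0.47 RPKM at 24 h (-1.68 ± 0.31, adjusted p = 0.0023) and 0.282 against 0.851 at 72 h (-1.36 ± 0.34). Ncoa1, a coactivator of the p160 family, changed by -1.04 at 24 h and Tbl1xr1, which exchanges corepressors for coactivators, by -0.95. Lpin1, a phosphatase that also coactivates PPARα, changed by -1.14 ± 0.19 at 72 h (15.98 against 34.2 RPKM), and the corepressor gene Ncor1 by -0.66. On the higher side at 24 h were Pprc1, the PGC-1-related coactivator, at 2.47 ± 0.94 against 1.00 ± 0.31 RPKM (1.21 ± 0.27, adjusted p = 0.0066), and the deacetylase gene Sirt1 at 1.49 ± 1.10 against 0.556 ± 0.200 (1.12 ± 0.38). The calls of Sirt1 at 24 h and Ncor1 at 72 h were lost without any 1 of 10 and of 9 samples. Pprc1 thus went up while Ppargc1b of the same protein family went down.

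Few of the other receptors that pair with RXR were measurable, 6 of 13 at 24 h and 7 at 72 h. Thrb, a thyroid hormone receptor, was called lower at both times, at 0.973 ± 0.385 against 2.37 ± 0.29 RPKM (-1.26 ± 0.26) and 0.456 ± 0.123 against 1.90 ± 0.41 (-1.86 ± 0.25, adjusted p = 2.1e-04). Nr4a1, an early response receptor, was called higher at 72 h, at 1.74 ± 0.72 against 0.357 ± 0.233 RPKM (2.20 ± 0.46, adjusted p = 0.0039). It passed the filter through the KD group alone, with 109 reads summed in KD 72 h and 19 in NC 72 h, so its values rest on few control reads. The medians of the list were 0.01 and 0.12. The interaction term called none of the genes in the 6 lists.

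The genes whose profiles over the 23 samples lay nearest to each member were sought among 6263 genes with a mean of at least 5 RPKM, by the mean absolute difference of centred log2 levels. This is a description without a test, and profiles share library, cluster and group effects. Ppara and Ppargc1a had the same nearest gene, Adrb3, the adrenergic receptor of fat cells, at 0.22 and 0.24, and both also had the collagen gene Col5a3 among their 3 nearest. Acadm was the second nearest to Ppara at 0.25. Ppargc1b was nearest to Acsl1, an acyl-CoA synthetase and itself a storage target, at 0.24. Rxrg was nearest to the mitochondrial carbonic anhydrase gene Car5b (0.25) and Rxra to Mprip (0.26). Pparg, whose own mean absolute deviation was only 0.21, was nearest to the mitochondrial ribosomal protein gene Mrps28 (0.11). For Ppard, Rxrb and Nrip1, the nearest genes were Fbxl15 (0.32), Cltb (0.28) and Vps26b (0.19), beside own deviations of 0.53, 0.43 and 0.25.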

How the data were processed

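Bulk RNA was barcoded with oligo-dT primers, pooled, tagmented and sequenced. Mapping used the Genomatix suite, whose version, genome build and strand handling for these libraries were not given in the sources used here. The authors deposited RPKM per transcript for 168326 RefSeq, Ensembl and GenBank entries. Entries of 1 gene overlap and can share reads. Groups and replicate numbers came from the sample titles, and 0 sample columns were unused.

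Values of RPKM rise in steps of 1 read, from which read totals and numbers were recovered. In NC 72 h replicate 6, 81.5% of low values were whole multiples of the step, against at least 99.99% in the other 23 libraries. Replicates 2 and 3 of NC 72 h had a squared difference of 0.341 times the counting noise (next pair, 1.89) and were averaged. An entry was tested if the equivalent of 10 reads was reached in a number of samples equal to the smaller group, and 15 in all. RPKM were scaled by a trimmed mean of log ratios (30% and 5%), and log2(RPKM + 0.1) was fitted with limma 3.58.1 in R 4.3.3 (eBayes with trend). Benjamini-Hochberg adjustment ran over all entries, tests were two-sided, and an adjusted p under 0.05 made a call. A fold change on this scale understates the change of low genes. The count-based test of the study needs read counts and was not run on RPKM. Fits were tested on simulated data.

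The members and the gene lists were chosen with earlier results of these data known, and 2 list genes are not reported here. Named genes were all 9 members and, per list, comparison and direction, the 3 called genes with the smallest p. Positions are from GENCODE M21 and promoters from RefSeq, both on GRCm38. Promoters were given for 8 of the 9 members (14 starts), and 4 motifs were searched on both strands. Statements on depth cover counting error only, and 95% intervals of fold changes come from the spread between samples.

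Alternatives were other pseudocounts (0.5 and 1), filters, scalings and sets of entries, limma-voom on recovered reads, the replicate block, library clusters, and leaving out each sample. Taking for each member the entry with the most reads was chosen after seeing the data.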

Additional observations from a re-analysis of the deposited data

Results flagged for a closer look

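Of 36 sets of values (each member in each group), 2 held a sample farther from the others than a test for single outlying values allows, and chance gives about 1 in 20. Ppargc1a in KD 72 h replicate 6 was the highest of its group at 2.65 RPKM from 85 reads, with the next at 1.63 and the lowest at 1.05, so that its gap made up 0.636 of the range where 0.625 is the limit. That library belongs to the smaller cluster. Without it, Ppargc1a in KD vs NC at 72 h changed by -1.42 on the log2 scale (adjusted p = 3.8e-04 in limma).

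Rxra in NC 24 h replicate 3 was the highest of its group at 3.73 RPKM from 63 reads, with the next at 2.76 and the lowest at 2.29, a gap of 0.675 of the range. That library belongs to the larger cluster. Without it, Rxra in KD vs NC at 24 h changed by -0.99 (adjusted p = 0.018 in limma).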

How the results depend on the processing

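Of the members' values under other settings, 968 kept their direction and side of the threshold, 32 lost the call, 25 gained it and 50 changed sign. Among called list genes 1110 kept both, 97 lost the call and 0 changed sign. Ppara and Rxra at both times, Rxrg and Ppargc1b at 24 h and Ppargc1a at 72 h lost their calls under no setting but the smaller cluster alone, which has 2 libraries a group. The number of members called in KD vs NC at 24 h was 5, and 0 in the smaller cluster alone. Ppard and Ppargc1a were added with RefSeq entries alone, voom, a cluster term and all 4 groups in 1 fit. Ppargc1a was also added under a filter of 30 reads and in the larger cluster. At 72 h the number of members called was 3, and 6 in the larger cluster and 0 in the smaller one. For NC 72 h against NC 24 h it was 2, and 1 with no filter, with the replicate block, in either cluster alone and with all 4 groups in 1 fit, and 3 with Ppargc1a added under a filter of 30 reads (adjusted p = 0.045), RefSeq entries alone (0.049) and voom (0.039). Leaving out 1 sample gave 4 to 6, 3 to 4 and 1 to 2 members, and 0 for the interaction.

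No member that changed sign had been called in that comparison. In the smaller cluster alone, Rxrb at 24 h was -0.35 and Nrip1 -0.071, and at 72 h Pparg was 0.013, Rxrg 0.067 and Ppargc1b 0.17. On the deposited scale Pparg at 72 h was 0.070. Between the control times, Pparg was 0.017 with the replicate block and 0.076 in the larger cluster, Rxra 0.0073 and Rxrb -0.024 with the block, and in the smaller cluster Rxrb was -0.35, Ppara 0.10 and Ppard -0.21. Leaving out 1 sample moved Pparg there from -0.094 to 0.018, Ppard from -0.14 to 0.20 (-0.015 without NC 72 h replicates 2 and 3), Rxra from -0.15 to 0.0072, Rxrb from -0.024 to 0.43 and Nrip1 from -0.12 to 0.027 (0.022 without NC 72 h replicates 2 and 3). For the interaction, Nrip1 was -2.0e-04 with median scaling, -0.0017 with the block, -0.22 in the larger cluster and -0.16 with its most-read entry, Ppard -0.35 and Rxrb -0.67 in the larger cluster, and Rxra 0.15 in the smaller one. Leaving out 1 sample moved Rxrb from -0.18 to 0.30 and Nrip1 from -0.078 to 0.15 (-0.064 without NC 72 h replicates 2 and 3). The cause was not tested.

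Pparg at 24 h lost its call with no filter (adjusted p = 0.091) and with the block (0.052). Among the named list genes, leaving out 1 sample ended the calls of Sirt1 (10 of 12 samples), Cidea (9), Idh3a (9), Yy1 (8) and Angptl4 (5) at 24 h and of Ncor1 (9 of 11) at 72 h, with adjusted p up to 0.098. Entries called numbered 11820 at 24 h, 12170 at 72 h, 4821 between control times and 120 for the interaction, and 2613, 2807, 1075 and 45 with 1 entry per gene, 3662, 3562, 1419 and 49 with RefSeq entries alone and 1563, 5854, 1800 and 1860 in the smaller cluster. With the block they were 2920 between control times and 30 for the interaction. With a cluster term they were 7237 and 406. The interaction gave 198 and 243 with pseudocounts of 0.5 and 1, 773 on the deposited scale, 182 with every library kept, 869 in the larger cluster and 53 to 176 with 1 sample left out. Deviations of same-numbered samples had mean correlations of -0.10, 0.03 and 0.04 in the 3 comparisons and ran from -0.26 to 0.27. Across groups, the mean was 0.11 for libraries of the same cluster and -0.14 for those of different clusters. Since the clusters enter these correlations, they cannot decide whether replicate numbers pair the samples. Depth limits Rxrb and Ppard most, at 4 to 43 and 10 to 59 reads per sample.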
